A study of Rattus norvegicus with 6 samples.

Results

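The genes examined here encode enzymes and motor proteins that write, erase or read out the state of chromatin. The deposited table of accessible chromatin sites (ACS) in rat pancreatic islets lists a gene for each ACS by position, which is not always the nearest gene. From it every ACS was taken whose listed gene has a symbol beginning with *Hdac*, *Kdm*, *Kmt2*, *Setd*, *Smarc*, *Chd* followed by a digit, *Sirt*, *Kat* followed by a digit, *Ehmt*, *Suv39* or *Prmt*. This gave 420 of the 101603 distinct ACS, at 61 genes. No ACS carried a *Kmt2* symbol, and 17 of the 61 genes had 1 ACS each. The assay, ATAC-seq, reads open DNA through cuts made by the Tn5 transposase, and each value counts the Tn5 integrations found within an ACS. The 3 adult libraries (replicates 4, 5 and 6) came from islet cells of adult male Sprague-Dawley rats of around 90 days. The 3 P10 libraries (replicates 1, 2 and 3) came from pups of the same strain at 10 days of age, of both sexes, mixed within 3 litters. No animal was treated. By the study's methods P10 pancreases were digested by hand shaking in collagenase, and adult ones after its injection into the pancreatic duct. Age, sex, the pooling of pups and this digestion differ together between the groups and cannot be told apart.

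Histone deacetylases (HDAC) and the NAD-dependent sirtuins (SIRT) remove acetyl groups from lysines, and lysine acetyltransferases (KAT) add them. Lysine demethylases (KDM) and the SET domain methyltransferases (SETD, EHMT, SUV39) set the methylation of histone lysines, while PRMT enzymes methylate arginines. SMARC proteins are ATPases and subunits of SWI/SNF and related remodelling complexes, and CHD proteins are chromodomain remodelling ATPases, which use ATP to move or evict nucleosomes. In islets such enzymes are known to take part in setting β-cell gene programmes after birth.

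Depth ranged from 7916919 to 11903909 integrations per adult library and from 13491534 to 21168463 per P10 library, of which 42897 to 66149 and 78590 to 122845 fell in the 420 ACS. The P10 libraries were deeper, and values are given as CPM (counts relative to the library size, after TMM scaling). Of 15 islet marker genes 11 had an ACS, and the summed level of their 146 ACS was 1368 to 1639 CPM in adults and 1348 to 1777 CPM in P10. Acinar (7 of 10 genes, 374 to 404 against 357 to 378 CPM), duct (244 to 277 against 212 to 236 CPM) and endothelial (6 of 6 genes, 407 to 483 against 364 to 387 CPM) markers also carried integrations. So did stellate (5 of 6 genes, 322 to 342 against 306 to 317 CPM), immune (4 of 6 genes, 23.8 to 31.5 against 26.0 to 34.8 CPM) and glial (7.61 to 9.06 against 10.1 to 12.3 CPM) markers. No ACS was listed at *Ppy*, *Mafa*, *Chga*, *Pcsk1*, *Cel*, *Cela1*, *Amy2*, *Krt7*, *Acta2*, *Cd68*, *Aif1* or *Sox10*. The duct, endothelial and stellate sums were higher in all adult libraries and the glial sum lower, while the islet, acinar and immune sums overlapped. Single ACS did not all follow their sum. Higher in adults were 17 of 38 duct, 36 of 59 endothelial, 20 of 43 stellate and 0 of 3 glial ACS, beside 50094 of all 101603. The part of these cell types in the results was not tested. In such bulk libraries fewer cells of a type and less open chromatin per cell cannot be told apart.

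The comparison of adult with P10 islets asks which ACS of these genes open or close as islets mature. An ACS was called Up (more integrations in adults) or Down (more in P10) at p under 0.05 and FDR under 0.2, where FDR is the Benjamini-Hochberg adjusted p of edgeR's quasi-likelihood test over all 101603 ACS. Of the 420 ACS, 53 were Up and 24 were Down. Over all ACS 12.3% were Up and 6.63% were Down, so the shares at the chromatin genes, 12.6% and 5.71%, were close to the background. Libraries of the ages did not overlap at 111 of the 420 ACS, or 26.4%, beside 24.7% of all ACS. The median log2 fold change was -0.05 at the chromatin genes and -0.01 over all ACS. The split of calls depended on the scaling: 68.8% of the 77 calls were Up with TMM factors, 49.0% (48 Up and 50 Down) with column sums as library sizes, and 53.1% (52 Up and 46 Down) with loess offsets. Over all ACS the Up share of calls moved alike, from 65.0% to 49.3% and 54.8%. Without P10 replicate 2 the counts were 29 Up and 12 Down, while 7.85% and 3.23% of all ACS were called. Without P10 replicate 3 they were 35 Up and 14 Down, while 8.77% and 4.17% of all ACS were called. The call of 31 ACS (25 Up and 6 Down) held whichever of the 6 libraries was left out. The share of all ACS whose call held in this way is not given here.

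At 55 TSS ACS (within 1000 bp of a gene start) 3 were Up and 1 was Down, against a background of 2.73% Up and 7.87% Down among all TSS ACS. Of 42 proximal ACS (within 10000 bp) 4 were Up and 1 was Down, against 11.2% and 6.71%. Of 323 distal ACS 46 were Up and 22 were Down, or 14.2% and 6.81%, against 13.8% and 6.45%. Thus 68 of the 77 calls (88.3%) were distal, beside 84.6% of all calls in the table. Beyond 100000 bp of the gene lay 30 calls (39.0%), beside 35.9% of all calls. The link of such an ACS to its gene is by position alone. Called ACS were found at 30 genes, and 31 genes had none. The share of all genes with a call is not given here. The 11 genes with at least 3 called ACS held 57 of the 77 calls: *Chd1*, *Chd2*, *Chd6*, *Hdac2*, *Hdac4*, *Hdac9*, *Prmt6*, *Smarca1*, *Smarca2*, *Smarca4* and *Smarcal1*. They had 5 (*Smarca4*) to 41 (*Chd1*) ACS each, while 17 of the 61 genes had 1. Over all ACS 2426 of 13829 genes had at least 3 calls.

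**Figure D1:**
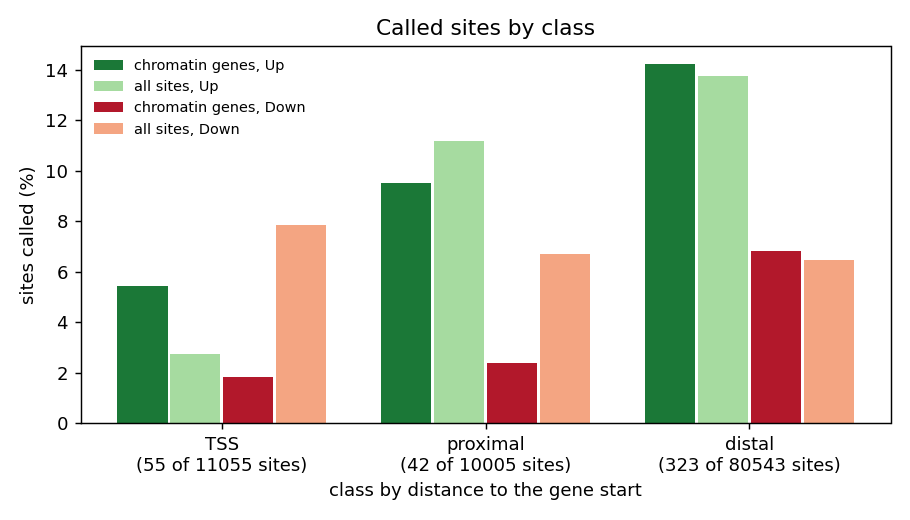
Bars give the percentage of ACS called Up or Down (vertical axis) by distance class (horizontal axis) for the 420 ACS of the chromatin genes and for all ACS, each starting at 0. Distal bars are nearly level between both sets (14.2% and 13.8% Up), whereas the TSS bars of the chromatin genes rest on 4 called ACS.

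An ACS lay within 1000 bp of the start at 50 of the 61 genes, and 11 genes had none there. The 55 TSS ACS had a median level of 17.9 CPM and ranged from 2.35 to 109 CPM. At 53 of them the log2 fold change lay within 0.5 of 0, with standard errors from 0.14 to 0.39. The 51 that were not called ranged from -0.62 (*Sirt7*) to 0.34 (*Smarca5*). The median log2 fold change of all 55 was -0.12, beside -0.10 for all TSS ACS. With column sums as library sizes 1 TSS ACS was Up and 10 were Down, and with loess offsets 2 were Up and 12 were Down. Down shares thus rose to 18.2% and 21.8%, beside 17.2% and 18.3% of all TSS ACS under the same scalings. At an FDR under 0.05 by edgeR no TSS ACS was called, while 7 of the 55 (12.7%) had an unadjusted p under 0.05, beside 1404 of all 11055 TSS ACS (12.7%).

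The RefSeq promoters (GRCr8 assembly, 250 bases before to 50 after the gene start) of the called TSS ACS and of 2 genes whose promoter ACS was level between the ages are given here to show the letters around these gene starts. Capitals mark matches to CCAAT, the NF-Y motif, on either strand, or to TGACGTCA, the cAMP response element (CRE). The ACS themselves are placed on Rn5, and whether these windows lie within them was not tested. *Hdac11*, whose TSS ACS was also called, is named only.
*Smarca1* promoter, chrX:131944233-131944532 (- strand): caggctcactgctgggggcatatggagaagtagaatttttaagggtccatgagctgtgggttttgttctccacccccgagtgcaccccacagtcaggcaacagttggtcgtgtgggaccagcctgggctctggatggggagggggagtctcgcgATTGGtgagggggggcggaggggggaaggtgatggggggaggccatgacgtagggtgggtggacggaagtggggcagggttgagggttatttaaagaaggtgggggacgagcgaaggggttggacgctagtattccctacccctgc
*Kdm1b* promoter, chr17:17850019-17850318 (- strand): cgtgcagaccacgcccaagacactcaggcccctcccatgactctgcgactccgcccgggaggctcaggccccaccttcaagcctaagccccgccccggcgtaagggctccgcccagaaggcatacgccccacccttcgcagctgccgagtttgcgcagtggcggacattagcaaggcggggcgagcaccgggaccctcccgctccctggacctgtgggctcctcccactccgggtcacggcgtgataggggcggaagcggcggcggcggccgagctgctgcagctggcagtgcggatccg
*Chd6* promoter, chr3:170177386-170177685 (- strand): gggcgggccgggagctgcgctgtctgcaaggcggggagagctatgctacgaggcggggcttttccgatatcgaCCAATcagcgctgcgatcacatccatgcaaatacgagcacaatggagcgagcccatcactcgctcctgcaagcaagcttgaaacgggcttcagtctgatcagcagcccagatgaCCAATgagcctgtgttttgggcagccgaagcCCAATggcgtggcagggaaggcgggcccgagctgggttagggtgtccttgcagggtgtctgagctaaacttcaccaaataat
*Hdac4* promoter, chr9:100197588-100197887 (- strand): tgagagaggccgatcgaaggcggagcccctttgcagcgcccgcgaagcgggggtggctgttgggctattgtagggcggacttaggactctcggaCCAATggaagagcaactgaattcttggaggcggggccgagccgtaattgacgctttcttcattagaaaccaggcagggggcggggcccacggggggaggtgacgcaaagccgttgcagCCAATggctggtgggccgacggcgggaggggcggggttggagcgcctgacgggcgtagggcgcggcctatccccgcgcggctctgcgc
*Suv39h2* promoter, chr17:79665217-79665516 (+ strand): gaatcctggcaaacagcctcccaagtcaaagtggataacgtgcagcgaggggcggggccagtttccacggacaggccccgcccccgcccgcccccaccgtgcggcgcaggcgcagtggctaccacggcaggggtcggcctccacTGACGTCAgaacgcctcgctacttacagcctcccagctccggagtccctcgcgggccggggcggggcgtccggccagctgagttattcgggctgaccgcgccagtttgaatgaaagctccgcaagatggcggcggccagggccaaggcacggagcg

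Of the 61 genes 51 had a promoter in the RefSeq table. Their median GC content was 62.0% beside 52.3% for all 27457 promoters, and they held a median of 23 CpG dinucleotides beside 7. CCAAT was found in 39.2% of the 51 promoters and in 37.7% of all. The other motifs searched on both strands were CCGGAAGT (ETS) in 7.84% beside 4.01%, GCATGCGC (the NRF1 core) in 7.84% beside 2.66%, CACGTG (E-box) in 9.80% beside 6.65%, TGACGTCA in 3.92% beside 1.91% and TGANTCA (AP-1) in 3.92% beside 7.33%. TATAAA, the TATA box, was found in 0 of the 51 promoters and in 14.3% of all. None of the 7 motifs contains another, and a match is a description of the letters only. The *Kdm1b* promoter held no match to the 7 motifs, the *Chd6* promoter held 3 CCAAT matches, and the *Suv39h2* promoter held the CRE.

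Among the 4 called TSS ACS, the one with the widest separation was at *Smarca1*, which encodes the ISWI ATPase SNF2L. This ACS (chrX:134791743-134792079, 233 bp upstream of the start) had 4.70, 3.60 and 6.57 CPM in adults and 2.70, 2.64 and 2.75 CPM in P10. All adult values were above all P10 values, and the log2 fold change was 0.86 ± 0.31 (SE; edgeR FDR 0.085). A second *Smarca1* ACS across the start (chrX:134790949-134791634) went the other way without a call, at -0.44 ± 0.24 (edgeR FDR 0.309). *Smarca1* is X-linked and the sexes differ between the groups. Over the 2587 ACS of chromosome X 178 were Up and 238 Down, with a median of -0.14.

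*Kdm1b*, a flavin-dependent lysine demethylase, had its single ACS at the promoter (chr17:19907912-19908701). It measured 91.0, 90.2 and 88.6 CPM in adults and 66.4, 74.7 and 71.3 CPM in P10, a log2 fold change of 0.34 ± 0.14 (edgeR FDR 0.15). The *Hdac11* promoter ACS (chr4:187763956-187764887) had 70.0, 55.5 and 71.0 CPM in adults against 53.3, 50.1 and 52.0 CPM in P10 (0.34 ± 0.15, edgeR FDR 0.199). *Hdac11* encodes the only class IV deacetylase. At the *Chd6* promoter (chr3:163324484-163325218) the adult values of 36.7, 38.0 and 31.5 CPM lay below the P10 values of 44.9, 52.1 and 39.9 CPM (-0.36 ± 0.17, edgeR FDR 0.198). The ages did not overlap at any of the 4, yet *Kdm1b* and *Hdac11* held their call in 1 of the 6 fits without a library, *Chd6* in 2 and *Smarca1* in 4. *Kdm1b* and *Hdac11* held it only without adult replicate 5, *Chd6* without that library or P10 replicate 3, and *Smarca1* lost it without adult replicate 6 or P10 replicate 2.

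**Figure D2:**
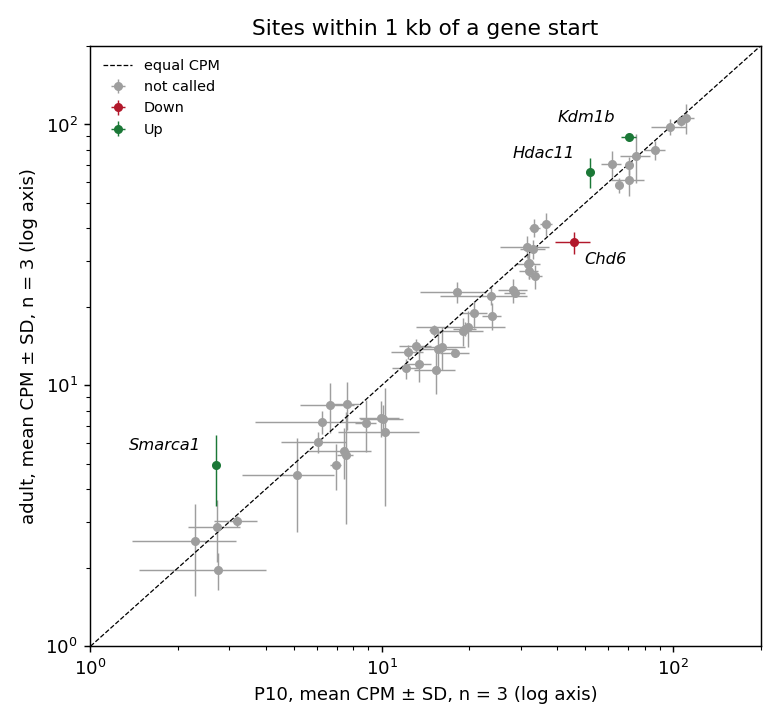
Each point is 1 of the 55 TSS ACS, with its mean CPM ± SD in the 3 P10 libraries on the horizontal axis and in the 3 adult libraries on the vertical axis, both logarithmic. Points follow the dashed line of equal CPM from 2.35 to 109 CPM, and the 4 called ACS are named.

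Of 69 ACS at 9 *Hdac* genes, the deacetylases, 11 were Up and 3 Down, or 15.9% and 4.35%, beside 12.3% and 6.63% of all ACS. Column sums as library sizes gave 9 Up and 5 Down, beside 10.3% and 10.6% of all ACS. Loess offsets gave 10 Up and 5 Down, beside 11.1% and 9.16%. *Hdac4*, a class IIa deacetylase that shuttles between cytoplasm and nucleus, had 11 ACS, of which 4 were Up and 0 Down. Its promoter ACS (chr9:98973510-98974550) was the most accessible of the family, with 106, 94.2 and 93.5 CPM in adults and 110, 100 and 82.8 CPM in P10. These values overlapped, and the log2 fold change was 0.01 ± 0.15, with either sign under other settings.

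Inside *Hdac4*, 3 Up ACS lay within 6418 bp of each other, from 88357 to 94401 bp past the start. The first (chr9:98879428-98879639, 94401 bp from the start) had 6.33, 4.67 and 5.80 CPM in adults and 1.3, 1.21 and 1.64 CPM in P10. Every adult library was above every P10 library, a log2 fold change of 2.0 ± 0.33 (edgeR FDR 0.000155). The second (chr9:98885472-98885845) had 15.6, 12.4 and 7.09 CPM in adults against 3.95, 2.85 and 4.44 CPM in P10, again without overlap, with adult replicate 6 the lowest of the adults (1.64 ± 0.28, edgeR FDR 0.000297). The third (chr9:98884857-98885143) rose by 0.95 ± 0.30 (edgeR FDR 0.0436). The other Up ACS lay 51637 bp upstream (chr9:99025466-99025704) at 1.03 ± 0.30 (edgeR FDR 0.0262). *Hdac4* had 4 Up and 0 Down ACS under each other test, scaling and filter tried, and 3 Up without P10 replicate 3.

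*Hdac9*, another class IIa gene, had 15 ACS with 1 Up and 2 Down. Both Down ACS lay inside the gene, and 1 of them (chr6:63486022-63486428) had 3.52, 1.75 and 3.74 CPM in adults and 6.09, 8.56 and 6.08 CPM in P10, without overlap (-1.20 ± 0.31, edgeR FDR 0.0123). The first of these held its call whichever library was left out. The other Down call was lost without adult replicate 4, 5 or 6 or P10 replicate 3. The Up ACS lay 136402 bp upstream (chr6:63816016-63816683) at 0.95 ± 0.24 (edgeR FDR 0.00994). *Hdac2*, a class I deacetylase of the NuRD, Sin3 and CoREST complexes, had 16 ACS with 3 Up and 1 Down. Its Down ACS (chr20:45081614-45082130, 246277 bp upstream) had 3.07, 1.85 and 2.84 CPM in adults against 4.04, 4.71 and 5.82 CPM in P10, with each adult value below each P10 value (-0.91 ± 0.32, edgeR FDR 0.0748). This call was lost without adult replicate 5 or P10 replicate 3. Calls at *Hdac2* fell to 1 Up and 1 Down without P10 replicate 2.

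Of 15 ACS at 5 *Sirt* genes 1 was Up and 1 Down (6.67% each). Of 13 ACS at 4 *Kat* genes 1 was Up (7.69%) and 0 Down, beside 12.3% and 6.63% of all ACS. With column sums as library sizes 4 *Sirt* and 1 *Kat* ACS were Down, beside 10.6% of all ACS. With loess offsets 5 *Sirt* and 1 *Kat* ACS were Down, beside 9.16%. The most accessible sirtuin ACS was the promoter of *Sirt3*, a mitochondrial deacetylase (chr1:220560839-220561861). It measured 20.2, 19.2 and 16.1 CPM in adults and 25.3, 22 and 24.6 CPM in P10. Adults lay below P10 throughout, but the difference of -0.37 ± 0.19 was not called (edgeR FDR 0.262). It was called Down with column sums as library sizes (edgeR FDR 0.104) and loess offsets (edgeR FDR 0.0803). At *Kat6a*, a MYST family acetyltransferase, the most accessible ACS (chr16:73655153-73656089, 1878 bp upstream) had 45.3, 42.3 and 42.3 CPM in adults and 40.2, 41.0 and 45.0 CPM in P10. These overlapped, at 0.04 ± 0.16, and the sign varied with the setting.

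Of 59 ACS at 12 *Kdm* genes 4 were Up and 1 was Down, or 6.78% and 1.69%, beside 12.3% and 6.63% of all ACS. Column sums as library sizes gave 3 Up and 7 Down, beside 10.3% and 10.6% of all ACS. Loess offsets gave 4 Up and 6 Down, beside 11.1% and 9.16%. *Kdm3a* encodes a JmjC demethylase of lysine 9 of histone H3. Its intragenic ACS (chr4:164303599-164303842, 22121 bp from the start) had 8.58, 6.91 and 7.73 CPM in adults and 1.91, 2.0 and 1.9 CPM in P10. That is 7.74 ± 0.835 against 1.94 ± 0.0535 CPM (SD, n = 3 each), a log2 fold change of 2.0 ± 0.29 (edgeR FDR 3.69e-05), called in each of the 6 fits without a library. The *Kdm3a* promoter ACS did not follow it, at -0.12 ± 0.15 (edgeR FDR 0.715).

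*Kdm4c*, a JmjC demethylase of the same lysine, showed a like pattern. An ACS inside the gene (chr5:94876825-94877074, 18611 bp from the start) had 12.3, 7.30 and 9.54 CPM in adults and 3.63, 4.14 and 2.96 CPM in P10, with no overlap (1.45 ± 0.27, edgeR FDR 0.000778). Its promoter ACS was at -0.02 ± 0.15. The most accessible ACS of all 420 was also listed at *Kdm4c*, 104937 bp beyond its end (chr5:95166107-95167232). It measured 188, 189 and 204 CPM in adults and 218, 237 and 221 CPM in P10. All adult values were lower, but the difference of -0.22 ± 0.13 was not called (edgeR FDR 0.367). This ACS was called Down with column sums as library sizes (edgeR FDR 0.112), loess offsets (edgeR FDR 0.197) and limma voom.

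Among the lysine methyltransferases 20 ACS at 5 *Setd* genes gave 1 Up and 2 Down (5% and 10%, beside 12.3% and 6.63% of all ACS). The 4 ACS at *Ehmt1*, *Ehmt2* and *Suv39h2* gave no call. With column sums as library sizes 2 of these 4 were Down, and with loess offsets also 2, beside 10.6% and 9.16% of all ACS. *Setd2*, which trimethylates lysine 36 of histone H3, had a single ACS, 18927 bp upstream (chr8:118143670-118144270). It had 24.1, 21.6 and 18.2 CPM in adults and 32.8, 29.9 and 27.1 CPM in P10, without overlap (-0.49 ± 0.18, edgeR FDR 0.1). The call was lost without adult replicate 6 (edgeR FDR 0.318) or P10 replicate 2 (edgeR FDR 0.222). This ACS lies nearer to the end of *Kif9*, at 7080 bp. At *Setd5* the most accessible ACS (chr4:208314632-208316128) had 124, 109 and 118 CPM in adults and 138, 134 and 118 CPM in P10, which overlapped (-0.15 ± 0.14, edgeR FDR 0.608). The promoter ACS of *Suv39h2*, an enzyme of heterochromatin, was level (34.3, 30.0 and 35.3 CPM in adults and 31.5, 36.7 and 30.8 CPM in P10). Its log2 fold change was 0.01 ± 0.17, of either sign under other settings.

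The arginine methyltransferases held the ACS with the largest positive log2 fold change of all 101603 in edgeR's test. Of 42 ACS at 7 *Prmt* genes 7 were Up and 3 Down, or 16.7% and 7.14%, beside 12.3% and 6.63% of all ACS. At *Prmt6*, which lays down asymmetric dimethylarginine on histone H3, 4 of 11 ACS were Up and 2 Down. The extreme ACS (chr2:233435143-233435586) had 35.2, 23.7 and 33.1 CPM in adults and 2.84, 3.07 and 4.07 CPM in P10. The lowest adult library was far above the highest P10 library, the log2 fold change was 3.20 ± 0.24 (edgeR FDR 5.12e-09), and the p-value ranked 2 among all ACS. Its range over the fits without 1 library was 3.07 to 3.36.

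This ACS lay 544962 bp upstream of *Prmt6* in a stretch without other listed genes, the next being *Amy1a* 1087679 bp on the other side. The deposited annotation gives *Prmt6* a span of 247877 bp, whereas RefSeq on GRCr8 gives 5011 bp, so distances to this gene depend on the annotation. In the same stretch a second ACS (chr2:233175688-233176103, 285507 bp upstream) had 34.2, 36.2 and 34.9 CPM in adults and 16.3, 14.4 and 17.4 CPM in P10, with narrow spread and no overlap (1.13 ± 0.18, edgeR FDR 0.00011). Farther out an ACS went Down (chr2:233698569-233698991, 808388 bp upstream). It had 1.72, 3.02 and 2.71 CPM in adults against 5.02, 4.99 and 4.49 CPM in P10 (-0.97 ± 0.32, edgeR FDR 0.0533). From the gene outwards the called ACS were thus 4 Up and then 2 Down. Without adult replicate 4, 3 Up and 0 Down were called.

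At *Prmt10*, whose identifier RefSeq now names *Prmt9*, an intragenic ACS (chr19:44960304-44960639) had 10.8, 9.45 and 10.6 CPM in adults and 3.11, 3.00 and 4.65 CPM in P10. Adults were above P10 throughout (1.51 ± 0.26, edgeR FDR 0.000353). *Prmt1*, the main producer of asymmetric dimethylarginine, had 1 ACS, at its promoter (chr1:102044747-102045609). It measured 106, 105 and 98.4 CPM in adults and 109, 110 and 100 CPM in P10, overlapping at -0.05 ± 0.14.

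**Figure D3:**
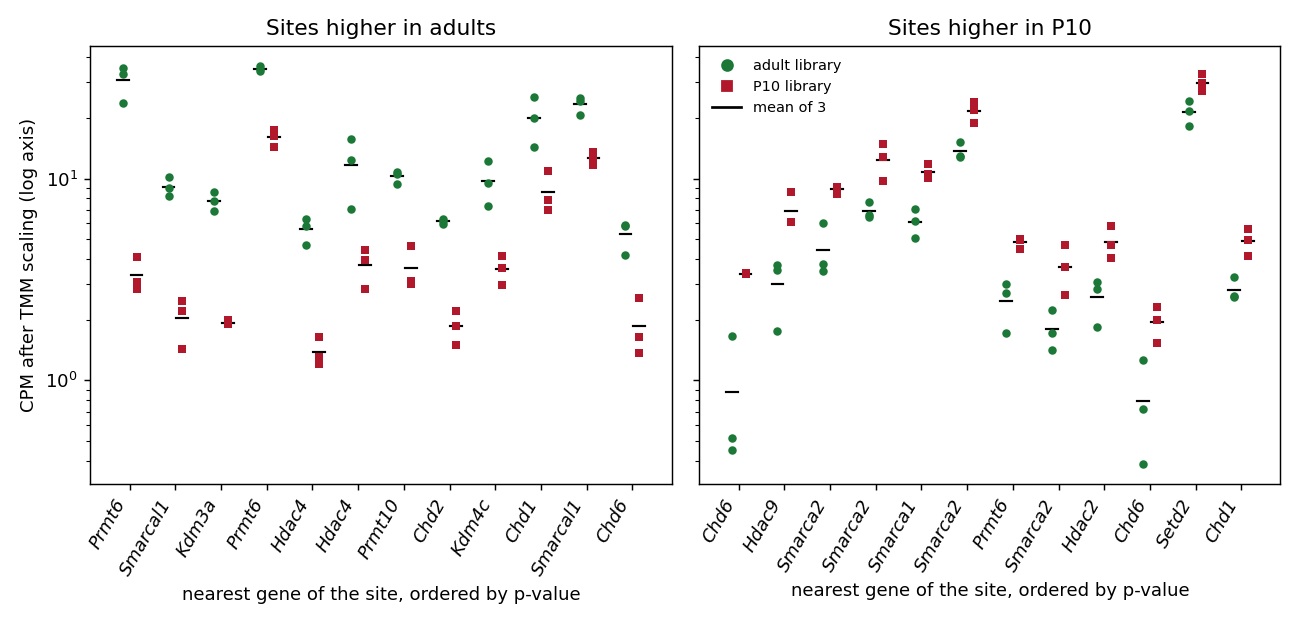
CPM per library on a logarithmic axis for the 12 Up ACS (left) and the 12 Down ACS (right) with the smallest p-values among called ACS without overlap, ordered by p-value. Green points are the 3 adult libraries, red squares the 3 P10 libraries and black lines their means. The first *Prmt6* ACS spans 2.84 to 35.2 CPM, and most of the Down ACS lie under 10 CPM in adults.

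The SMARC family was the largest, with 105 ACS at 12 genes. Of these 17 were Up and 8 Down, or 16.2% and 7.62%, beside 12.3% and 6.63% of all ACS. Column sums as library sizes gave 16 Up and 16 Down, beside 10.3% and 10.6% of all ACS. Loess offsets gave 17 Up and 14 Down, beside 11.1% and 9.16%. *Smarcal1*, an annealing helicase that acts at stalled replication forks, had 17 ACS with 6 Up and 0 Down. Its intragenic ACS (chr9:79727007-79727258, 10637 bp from the start) had 10.2, 8.18 and 9.02 CPM in adults and 2.46, 2.21 and 1.43 CPM in P10. The ages were far apart (2.16 ± 0.29, edgeR FDR 1.6e-05). The other 5 Up ACS lay within 67803 bp of each other, upstream of the gene. Of these, chr9:79582862-79583474 had 25.0, 20.7 and 24.2 CPM in adults and 13.5, 12.8 and 11.7 CPM in P10, without overlap (0.88 ± 0.20, edgeR FDR 0.00367). This ACS was 132896 bp from *Smarcal1* and 62251 bp from *Xrcc5*, a gene of DNA end joining, on its other side. Also nearer to *Xrcc5* were chr9:79577742-79578171 (57131 against 138199 bp) and chr9:79595097-79595532 (74486 against 120838 bp). Nearer to *Smarcal1* were chr9:79624551-79624853 (91517 against 103940 bp) and chr9:79645335-79645544 (70826 against 124724 bp). The *Smarcal1* promoter ACS was not called, at 0.20 ± 0.15 (edgeR FDR 0.514). Without P10 replicate 2, 2 of the *Smarcal1* ACS were Up, and without P10 replicate 3 there were 4.

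*Smarca2* encodes BRM, 1 of the 2 alternative ATPases of SWI/SNF. It had 36 ACS with 3 Up and 5 Down. Of 17 ACS inside the gene 0 were Up and 3 Down, and 14 of the 17 had a negative log2 fold change. Of all 22433 ACS inside genes 3591 were Up and 1502 Down, and 10804 had a negative log2 fold change. The intragenic ACS nearest the start among those called (chr1:251892519-251893203) had 3.80, 6.04 and 3.48 CPM in adults and 9.06, 8.42 and 9.09 CPM in P10. Adults lay below P10 without overlap (-0.99 ± 0.27, edgeR FDR 0.0178). Farther into the gene chr1:252004999-252005749 had 6.60, 7.69 and 6.45 CPM in adults and 9.71, 14.8 and 12.8 CPM in P10 (-0.84 ± 0.24, edgeR FDR 0.0252). Close by, chr1:252007266-252007641 had 1.72, 2.24 and 1.42 CPM against 4.69, 2.64 and 3.65 CPM (-1.03 ± 0.36, edgeR FDR 0.0705). In both the adult values were below all P10 values, but the call at the latter was lost without P10 replicate 1 (edgeR FDR 0.236).

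Beyond the end of *Smarca2* the ACS at chr1:252097477-252098173 had 15.3, 13 and 12.8 CPM in adults and 19, 24 and 21.9 CPM in P10 (-0.66 ± 0.20, edgeR FDR 0.0349). It lay 62283 bp past the gene. At 80206 bp past the gene chr1:252115400-252116031 went Up, with 44.3, 30.5 and 38.0 CPM in adults and 26.2, 20.8 and 22.1 CPM in P10 (0.70 ± 0.18, edgeR FDR 0.0118). Neither overlapped between the ages. The *Smarca2* promoter ACS was not called (-0.16 ± 0.15). Column sums as library sizes gave 3 Up and 9 Down at this gene, and leaving out P10 replicate 2 gave 1 Up and 4 Down.

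*Smarca4* encodes BRG1, the other SWI/SNF ATPase. All 4 of its intragenic ACS were called, 3 Up and 1 Down, while its promoter ACS was at -0.12 ± 0.17. Of all 22433 ACS inside genes 17340 were not called. The share of genes with all such ACS called is not given here. The Down ACS (chr8:22742709-22743113) had 1.54, 1.07 and 2.19 CPM in adults and 3.25, 3.00 and 2.70 CPM in P10. Its neighbour 1748 bp away (chr8:22744862-22745077) had 4.16, 3.70 and 2.96 CPM in adults and 1.86, 0.571 and 1.27 CPM in P10. The 2 thus differed in direction, at -0.92 ± 0.37 (edgeR FDR 0.131) and 1.51 ± 0.39 (edgeR FDR 0.0118), on low counts. Without P10 replicate 3, 1 *Smarca4* ACS was Up and 0 were Down, and the Down call was lost in 5 of the 6 fits without a library.

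*Smarca1* had 27 ACS with 4 Up and 1 Down. Its Down ACS (chrX:134218907-134219459) had 7.05, 5.06 and 6.19 CPM in adults and 10.5, 11.8 and 10.0 CPM in P10, without overlap (-0.82 ± 0.24, edgeR FDR 0.0313). Only 12283 bp away an Up ACS (chrX:134231743-134232145) had 12.7, 11.7 and 12 CPM in adults against 4.74, 5.71 and 7.98 CPM in P10 (0.98 ± 0.25, edgeR FDR 0.0097). They lay 501277 and 488591 bp from the gene. Leaving out adult replicate 6 or P10 replicate 2 left 1 Up and 1 Down, and column sums as library sizes gave 3 Up and 4 Down. The most accessible ACS of the family was at *Smarca5*, the ISWI ATPase SNF2H (chr19:41839821-41840806, 343 bp upstream). It measured 96.1, 70.2 and 72.3 CPM in adults and 68.2, 60.8 and 61.7 CPM in P10. The adults were higher throughout, with adult replicate 4 the highest, and the difference was not called (0.32 ± 0.16, edgeR FDR 0.230). It was called Up with robust dispersion (edgeR FDR 0.189), limma voom (limma FDR 0.198) and without adult replicate 5 (edgeR FDR 0.0938).

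**Figure D4:**
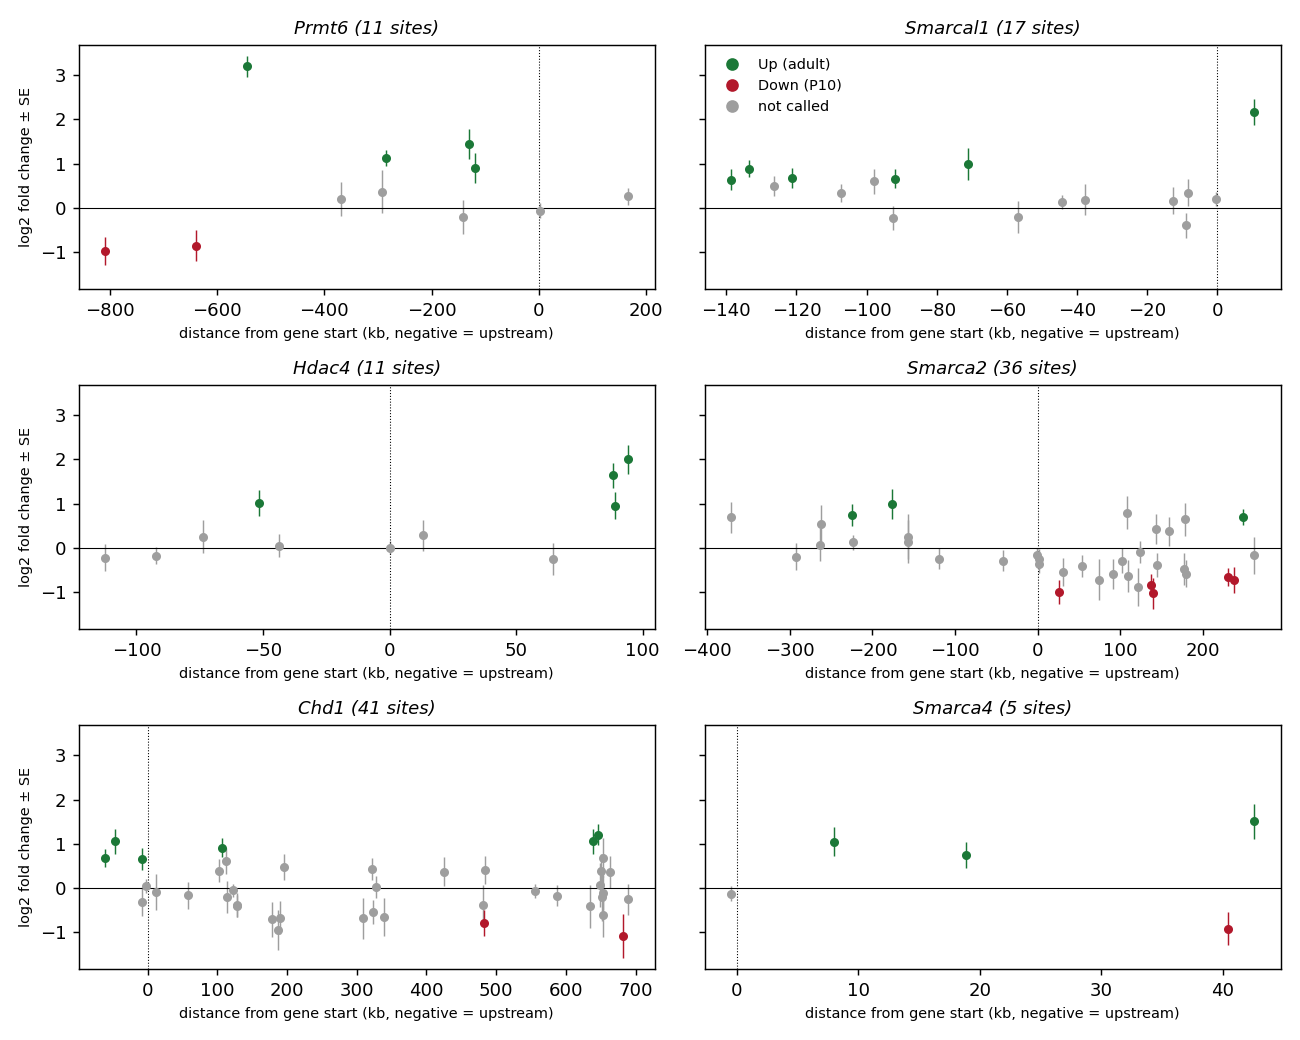
Log2 fold change ± SE (vertical axis) of every ACS of 6 genes against its distance from the gene start in kb (horizontal axis, negative values upstream). Green points are Up, red points Down and grey points not called. *Hdac4* and *Smarcal1* have 4 and 6 Up ACS and no Down ACS, whereas Down ACS of *Smarca2* lie inside and beyond the gene.

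The CHD remodelers had 93 ACS at 4 genes, with 11 Up and 6 Down, or 11.8% and 6.45%, beside 12.3% and 6.63% of all ACS. *Chd1*, which is known for binding trimethylated lysine 4 of histone H3 at active genes, had 41 ACS with 6 Up and 2 Down. The Up ACS with the smallest p-value (chr1:59265479-59266184, 582002 bp beyond the gene) had 20.1, 14.4 and 25.3 CPM in adults and 6.97, 7.85 and 10.9 CPM in P10. All adults were above all P10 libraries (1.21 ± 0.24, edgeR FDR 0.0011). Between it and the gene a Down ACS (chr1:59101329-59101832) had 3.25, 2.63 and 2.58 CPM in adults and 4.14, 4.99 and 5.6 CPM in P10 (-0.79 ± 0.30, edgeR FDR 0.112). The most accessible *Chd1* ACS (chr1:58741651-58743050) was level, with 88.0, 74.5 and 88.0 CPM in adults and 83.2, 86.4 and 89.4 CPM in P10 (-0.05 ± 0.15). Both Down calls at *Chd1* were lost without adult replicate 6, P10 replicate 2 or P10 replicate 3.

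*Chd2*, a close relative of *Chd1*, had 30 ACS with 4 Up and 1 Down. Upstream of the gene chr1:136014540-136014788 had 6.33, 5.94 and 6.19 CPM in adults and 1.86, 1.5 and 2.22 CPM in P10. The ages were well apart and the spread was small (1.71 ± 0.31, edgeR FDR 0.000428). Without P10 replicate 2 this ACS alone was called at *Chd2*, and without P10 replicate 3 there were 2 Up and 1 Down.

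*Chd6*, of another CHD subfamily, had 19 ACS with 1 Up and 3 Down. The Down ACS 461342 bp upstream (chr3:163786106-163786404) had 0.452, 1.66 and 0.516 CPM in adults and 3.39, 3.35 and 3.38 CPM in P10. Adult replicate 5 was the highest of the adults but still below every P10 library (-1.92 ± 0.43, edgeR FDR 0.00402). On these low counts the log2 fold change was -1.57 without adult replicate 4 and -2.79 without adult replicate 5. A nearer ACS (chr3:163363667-163363914) had 0.723, 1.27 and 0.387 CPM in adults against 2.32, 2.0 and 1.53 CPM in P10, also without overlap (-1.25 ± 0.45, edgeR FDR 0.0826). The Up ACS lay between them (chr3:163430866-163431078), with 5.87, 4.19 and 5.80 CPM in adults and 2.56, 1.64 and 1.37 CPM in P10 (1.49 ± 0.33, edgeR FDR 0.00367). Without adult replicate 6 or P10 replicate 1, 1 Up and 1 Down remained.

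**Figure D5:**
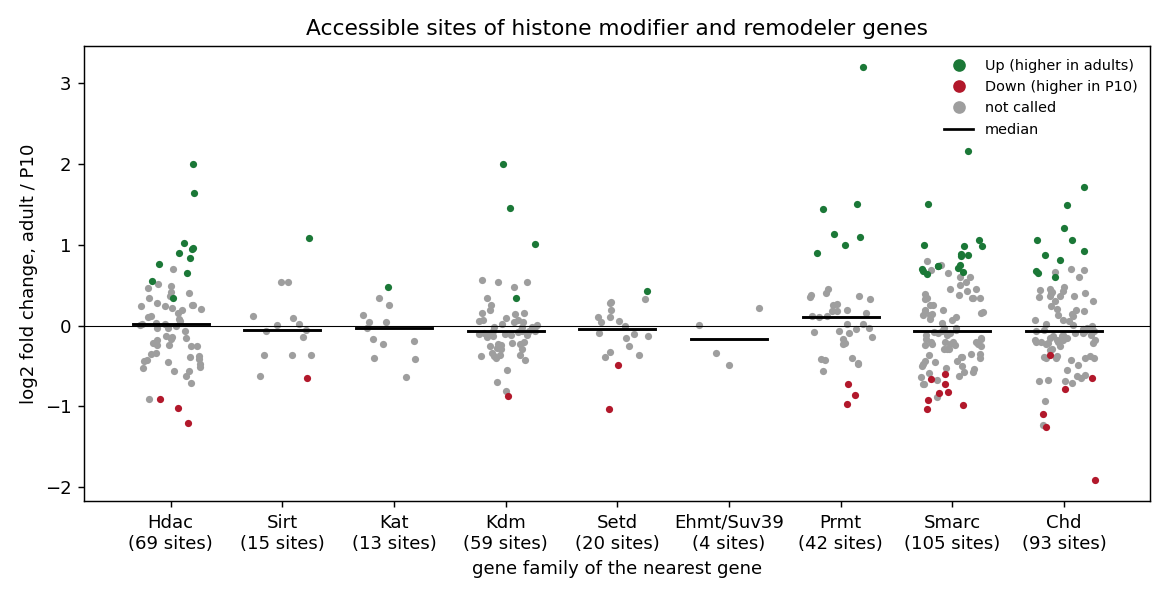
Log2 fold change of adult over P10 (vertical axis) for each of the 420 ACS by gene family (horizontal axis), coloured by call, with the family median as a black line. Medians lie between -0.17 and 0.11, while single ACS reach 3.20 (*Prmt6*) and -1.92 (*Chd6*).

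Of the 12 genes with at least 2 called ACS, 2 (*Hdac4* and *Smarcal1*) had Up calls only, 0 had Down calls only and 10 had both (83.3%). Over all ACS 2123 of 3864 such genes had both (54.9%), with a median of 3 called ACS a gene beside 4.5 at the chromatin genes. Pairs of called ACS that follow each other along a gene's list were counted at the 11 genes with at least 3 called ACS. Of these 46 pairs, 29 had the same direction and 17 (37.0%) opposite directions. Over all ACS 31.6% of 10590 such pairs, at 2426 genes, had opposite directions. *Prmt8*, with 1 Up and 1 Down, was left out of the pairs. The closest opposite pairs were those of *Smarca4* (1748 bp) and of *Chd2* (2024 bp, 0.61 and -0.64).

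The 420 ACS together held 0.556, 0.552 and 0.542% of the integrations of the adult libraries and 0.580, 0.583 and 0.555% of those of the P10 libraries. The means were 0.550 ± 0.00714% and 0.573 ± 0.0152% (SD, n = 3 each), and the groups overlapped by a narrow margin, in that 1 adult library was just above the lowest P10 library. The exact two-sided permutation test gave p = 0.2, where 3 against 3 libraries cannot go under 0.1. Of these integrations the TSS ACS held 27.8, 27.7 and 27.2% in adults and 29.6, 29.3 and 28.6% in P10. All adult libraries were lower, by 1.6 percentage points, with an exact permutation p = 0.1, the smallest possible. Over all ACS the same share was 25.5% in adults and 28.2% in P10.

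The rule follows the deposited symbols, some of which are older names or absent. Of 6846 ACS without a symbol, 6661 have an identifier that RefSeq now names. Matching identifiers to current symbols would add 30 ACS at 7 genes, which are not among the 420. The 30 gave 5 Up and 3 Down, or 16.7% and 10%, beside 12.3% and 6.63% of all ACS. Of the 30, 16 belong to *Kmt2e*, a SET domain protein, with 5 Up and 0 Down. The *Kmt2e* ACS at chr4:8177292-8177804 had 48.3, 38.3 and 44.0 CPM in adults and 30.6, 15.7 and 16.2 CPM in P10, with P10 replicate 1 the highest of the pups (1.06 ± 0.21, edgeR FDR 0.00129). It held its call in all 6 fits without a library and chr4:8400173-8400601 in 5. The calls at chr4:8278970-8279321 and chr4:8313907-8314237 held in 3, and at chr4:8312104-8312668, where the ages overlapped, in 2. Both ACS of *Kat14* were Down (-0.65 ± 0.23 and -0.81 ± 0.25, edgeR FDR 0.0792 and 0.0433), held in 4 and 6 fits. At *Kat7* 1 of 2 was Down (-0.68 ± 0.25, edgeR FDR 0.095), but the ages overlapped there and the call held in 2 of the 6 fits. No ACS of *Kdm4d*, *Setd3*, *Setdb1* or *Suv39h1* was called. *Smarcd1* is placed on chromosome X by the table and on chromosome 7 by RefSeq, and neither of its 2 ACS was called.

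Other chromatin genes outside the rule (co-activators, bromodomain proteins, further complex subunits) had 394 ACS at 79 of 97 genes listed. There 54 were Up and 14 Down (13.7% and 3.55%, beside 12.3% and 6.63% of all ACS), with a median log2 fold change of -0.02. Among their 68 TSS ACS 1 was Up, at *Smyd5* (0.79 ± 0.21, edgeR FDR 0.0137), and 1 Down, at *Naa60* (-0.55 ± 0.20, edgeR FDR 0.0952). DNA methylation and Polycomb genes had 154 ACS at 26 of 34 genes, with 14 Up and 12 Down (9.09% and 7.79%) and a median of -0.08. Of their 26 TSS ACS 2 were Up (*Phc3*, 1.25, and *Pcgf1*, 0.67) and 3 Down (*Cbx2*, -0.54, *Uhrf2*, -0.52, and *Eed*, -0.40), and these are subunits or partners of Polycomb complexes except *Uhrf2*, a reader of modified cytosine. The median over all 101603 ACS was -0.01.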

How the data were processed

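ATAC-seq libraries of islet cells from 3 adult and 3 P10 samples were compared. The authors aligned reads to Rn5 with BWA 0.7.13, removed mitochondrial and low-quality reads with SAMtools 1.3, called peaks with MACS2 2.1.1 on the joined samples of each age, merged both peak sets and deposited, for each library, the raw count of Tn5 integrations in every ACS. Removal of duplicates is not given in the sources used here. The submitters' processing notes also name FastQC 0.11.2. The deposited table also holds the authors' own comparison of the ages (a p-value, an FDR, an F score and log2 values for the fold change and the mean CPM of each ACS), which was not used. Since peaks were called per age on pooled reads, an ACS open at 1 age alone can enter the table.

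Of 101941 entries 101603 were distinct ACS. They were tested with edgeR 4.0.16 in R 4.3.3 (TMM factors 0.93 to 1.04, quasi-likelihood test, age as the only term, all 6 libraries), with Benjamini-Hochberg adjustment over all ACS and calls at p under 0.05 and FDR under 0.2. No low-count filter was used in the reported test. The usual filter (count of 10, total of 15) would keep 408 of the 420 ACS, and 36 of the 420 had a mean count under 20. The SE is the log2 fold change divided by the root of F. CPM values come from TMM library sizes, SDs are over 3 libraries, and classes and listed genes are those of the table. Replicates of an age differed by more than counting noise (chi-square per degree of freedom 3.35 to 7.81), so none was counted as a duplicate. The study names 3 adult rats and pups of 3 litters as the sources, and the labels do not say more on how the libraries of an age relate. The edgeR p-values set the difference between the ages against the spread among libraries of an age.

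The test was checked on simulated data, and its alternatives were limma 3.58.1 (voom), DESeq2 1.42.0, column sums, loess offsets (span 0.3), the filter, robust dispersion, autosomes alone, an FDR under 0.05, the first listed gene for each ACS and leaving out each library. Members by current RefSeq symbol and members within 100000 bp were added after seeing the data. Members, gene lists and tests were chosen with earlier results of these data known. The ACS named are the 12 Up and 12 Down with the smallest p among called ACS without overlap, every called TSS ACS, and the most accessible ACS per family. Genes with at least 3 calls are given by counts, and further ACS of these genes, the *Kdm3a*, *Kdm4c* and *Sirt7* promoters and genes matched by current symbol were picked after their values were seen. Identifiers of all 61 genes matched RefSeq. Some marker genes of the duct and glial lists are not reported here.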

Additional observations from a re-analysis of the deposited data

How the results depend on the processing

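The counts of 53 Up and 24 Down stayed within 1.5 times under DESeq2, limma voom, the low-count filter, robust dispersion and autosomes alone. The last of these leaves out the ACS of chromosome X. Taking the first listed gene could not change the counts, since no ACS of these genes is listed with a second gene. Added current symbols could only add to the counts, which also stayed within this range. Column sums gave 50 Down with 1 TSS ACS Up and 10 Down, and loess offsets 46 Down with 12 TSS ACS Down. At an FDR under 0.05 there were 31 Up and 6 Down, with 0 TSS ACS Up and 0 Down, while 7.06% and 1.91% of all ACS were called. Within 100000 bp of a gene there were 33 Up and 14 Down (12.1% and 5.13%), beside 11.7% and 6.86% of all such ACS. Autosomes alone left 1 TSS ACS Up, while DESeq2, robust dispersion and added current symbols each gave 2 TSS ACS Down. Leaving out a library gave 29 to 61 Up and 12 to 28 Down, lowest without P10 replicate 2, and 0 to 3 TSS ACS Up and 0 to 3 Down. The median log2 fold change kept its sign under all settings tried, from -0.15 with column sums to -0.03. Of 553 values of the 37 named ACS under alternatives, 485 kept direction and call, 44 lost the call and 8 gained one. The first listed gene is counted among these alternatives but could not change a value. A further 16 values changed sign, at ACS that were not called and lay near 0. With column sums the log2 fold changes were -0.089 at the *Hdac4* promoter, -0.056 at *Kat6a* and -0.086 at *Suv39h2*. With loess offsets they were -0.030, -0.031 and -0.077, and with DESeq2 -0.0072 at *Hdac4* and -0.0024 at *Suv39h2*. Without a library they ranged from -0.11 to 0.087 at *Hdac4*, from -0.0036 to 0.080 at *Kat6a*, from -0.049 to 0.078 at *Suv39h2* and from -0.088 to 0.028 at the most accessible *Chd1* ACS. The cause was not tested. Both shares of integrations kept their sign without each library. No paired analysis was possible because the adult and P10 replicates carry different numbers. Depth limits ACS with few counts: the median SE was 0.20 at TSS and 0.32 at distal ACS.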
